A study of Homo sapiens with 40 samples.

Results

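RNA captured at the endoplasmic reticulum (ER) membrane was compared with RNA captured at the nuclear lamina, and the genes described are those higher after capture at one site and lower after capture at the other. The comparison used 12 of the 40 libraries of a series on proximity labelling of RNA, chosen by construct and nucleoside. All cells were HEK293T, a human embryonic kidney line, and expressed the engineered peroxidase APEX2 fused to a targeting sequence. The ERM construct (ER membrane) gave 4 enriched and 4 input libraries, and the LMNB1 construct (nuclear lamina, through lamin B1) gave 2 enriched and 2 input libraries. Per the labels' protocols, all these cells were given 100 uM thionucleoside over 5 h. Biotin-phenol at 0.5 mM was present in the final 30 min, and the peroxidase was started with 1 mM hydrogen peroxide and stopped after 1 min. Enriched libraries held what streptavidin beads retained from 6.5 ug of RNA, and inputs were made from 300 ng of the RNA before the beads. The titles and the series design name 6-thioguanosine (s6G) for all 12 libraries. The characteristics of the 4 enriched ERM libraries and of all 4 LMNB1 libraries name s4U instead, and the titles were followed. Neither the promoter behind the fusions nor whether the lines were single clones was given in the sources used here.

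Messenger RNAs for secreted and membrane proteins are translated on ribosomes bound to the ER membrane, whereas the lamina lines the inner face of the nuclear envelope and is close to chromatin, RNA being made and RNA kept in the nucleus. The outer nuclear membrane is continuous with the ER, so that the sites are neighbours separated by the envelope. A thionucleoside enters only RNA made after it is added, so that RNA of recent synthesis can be favoured with either construct. Libraries were polyA-selected.

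ERM libraries held 5342584, 6330023, 13885706 and 14496768 counts after enrichment and 6664875, 5720578, 12602028 and 12382757 as input. LMNB1 libraries held 7258396 and 8560346 counts after enrichment and 4254316 and 5153997 as input. ERM numbers 3 and 4 were thus deeper than numbers 1 and 2, and libraries of these 2 pairs of numbers also deviated together, so the counts of calls were also made with each pair of numbers alone. LMNB1 and SEC61B, genes of the lamina and of the ER channel, differed in level between the constructs already in the inputs. Input levels are from before the beads and do not measure where RNA was captured. LMNB1, which encodes lamin B1, had 155 to 164 CPM (counts scaled to library size and composition) in enriched and 125 to 161 CPM in input ERM libraries, against 5178 to 5229 CPM in enriched and 4271 to 5402 CPM in input LMNB1 libraries. SEC61B, a subunit of the channel through which proteins enter the ER, had 2374 to 3263 CPM in enriched and 1213 to 1528 CPM in input ERM libraries, against 58.6 to 108 CPM in enriched and 116 to 137 CPM in input LMNB1 libraries. No difference in enrichment was called for LMNB1 between the constructs (log2 difference 0.04 ± 0.23, edgeR adjusted p = 0.916), and the sign of that value changed with the processing. Summed levels of 18 markers of other cell types, of which 5 passed the filter on low counts, were 10.4 to 14.8 CPM in enriched and 32.3 to 42 CPM in input ERM libraries and 22 to 31.7 CPM in enriched and 35 to 75.3 CPM in input LMNB1 libraries. The 8 markers of HEK293 summed to 630 to 666 and 587 to 633 CPM with ERM and to 229 to 303 and 457 to 540 CPM with LMNB1. Both sums of markers are scaled to library size alone, unlike the CPM of single genes. The labels give no date of culture or labelling, and a batch that went with the construct and the construct itself cannot be told apart.

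For each gene, enrichment was the log2 ratio of enriched over input libraries of one construct, and the difference was the ERM enrichment minus the LMNB1 enrichment, so that a positive value means more enriched with ERM. Errors are standard errors from the edgeR fit, with n = 4 libraries per ERM group and n = 2 per LMNB1 group. A call is an adjusted p under 0.05 over the 16194 genes that passed the filter on low counts, of 57992 in the table. The difference was called higher in 3045 genes (18.8%) and lower in 2408 (14.9%). Within the ERM construct 4826 genes (29.8%) were higher and 4510 (27.8%) lower in enriched libraries than in input. Within LMNB1 these numbers were 2366 (14.6%) and 3045 (18.8%). Most genes called in both constructs went the same way, with 912 higher in both and 1917 lower in both. A group of 457 genes (2.82% of those tested) was higher with ERM and lower with LMNB1, and 292 genes (1.8%) were lower with ERM and higher with LMNB1, each also called in the difference.

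**Figure D1:**
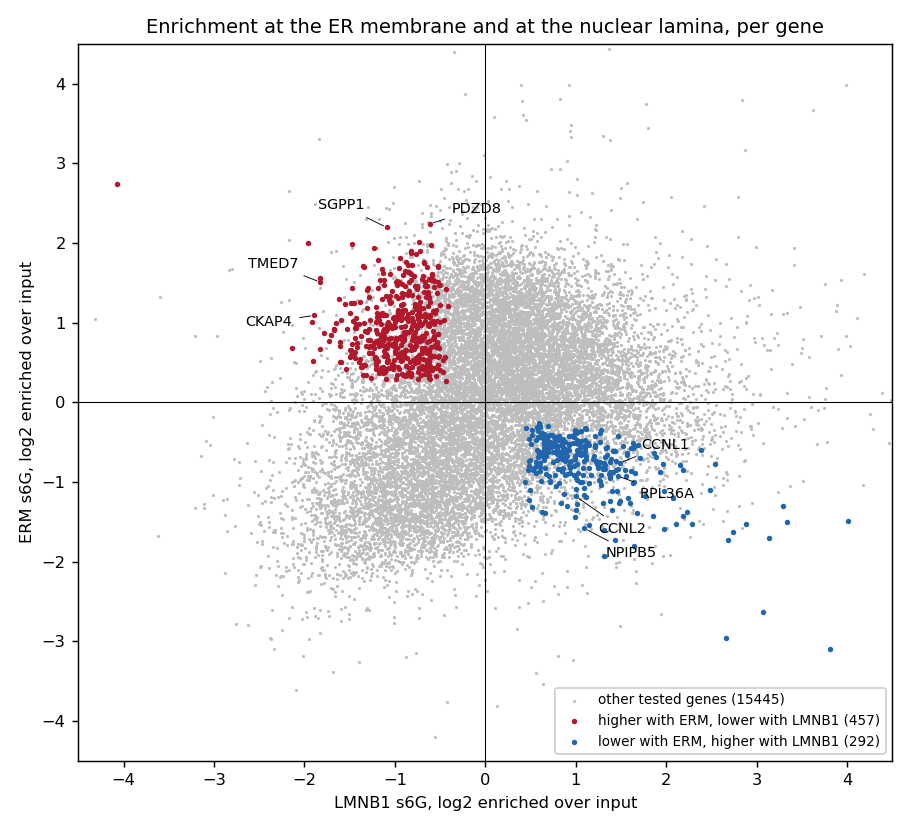
Each point is a gene, with the log2 ratio of enriched over input in ERM s6G libraries on the vertical axis and in LMNB1 s6G libraries on the horizontal axis; 49 genes lie beyond the axis limit of 4.5 on either scale. The 457 genes in red are called higher with ERM and lower with LMNB1, the 292 in blue the reverse, and the other tested genes, in grey, spread over every quadrant.

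The counts of opposite genes depended on the error model and on the scaling. The enriched and input libraries of one number are the same replicate before and after the beads, and with that number as a block the counts were 862 and 505, with 457 and 286 of the genes shared with the fit without it. Scaling by total counts alone moved the median gene to 0.40 with ERM and 0.36 with LMNB1. It gave 68.1% of the ERM calls and 71.1% of the LMNB1 calls as higher, against 51.7% and 43.7% with the composition scaling. Under total counts the opposite groups held 297 and 263 genes, of which 182 and 96 were shared with the main result. A change of sign between the constructs is therefore relative to the median gene. The difference itself hardly moved under total counts, with a median of -0.03 against -0.02 with composition scaling. RLE, another composition scaling, moved its median to -0.118, with 2689 genes called higher and 2760 lower. The opposite groups then held 377 and 365 genes. Without LMNB1 input number 2 the second group fell to 136 genes, without LMNB1 input number 1 to 156, and without LMNB1 enriched number 1 to 167. With ERM numbers 1 and 2 alone the opposite groups held 371 and 265 genes, and with numbers 3 and 4 alone 457 and 148. The difference was called higher in 2387 and lower in 2117 genes with numbers 1 and 2, against 2743 and 1731 with numbers 3 and 4. Without LMNB1 input number 2, 3299 genes were called within LMNB1, against 5411 with all libraries.

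The 457 genes higher with ERM and lower with LMNB1 had a median log2 enrichment of 0.87 with ERM and -0.91 with LMNB1, and a median difference of 1.86. Both values passed 1 in size in 55 of them. Of the 453 with a RefSeq entry, 99.3% were protein coding, against 87% of all tested genes with an entry. Their genomic span had a median of 40381 bases, against 27818 over all tested genes. They included 5 genes with a ZNF name, against 460 of the 16194 tested. Names that mark an antisense, divergent or intergenic RNA made up 0.219% of the group, against 5.05% of all tested genes. The gene lists used below held 39 of them.

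The 12 named genes of this group are those with the largest difference among well-counted genes whose enriched and input libraries did not overlap in either construct. TMED7 (ENSG00000134970, GRCh38.p14 chromosome 5, 115613210 to 115626036), a p24 protein that selects cargo between ER and Golgi, had 149, 176, 121 and 95.8 CPM in enriched and 47.0, 49.4, 46.3 and 47.2 CPM in input ERM libraries. In LMNB1 libraries TMED7 had 15.6 and 14.2 CPM after enrichment and 60.3 and 45.2 CPM in input. All 4 enriched ERM libraries lay above all inputs and both enriched LMNB1 libraries below them, with a log2 difference of 3.33 ± 0.30 (edgeR adjusted p = 4.14e-06). Separation from the inputs of the same construct was required by the choice of named genes, which also ranked the difference in these same libraries. TMED7 overlaps the readthrough gene TMED7-TICAM2 in RefSeq, so that its reads may be shared.

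SGPP1 (chromosome 14, 63684216 to 63728065) encodes a phosphatase of sphingosine 1-phosphate in the ER membrane. It had 97.7, 98.8, 84.9 and 90.0 CPM in enriched and 22.9, 20.0, 19.8 and 18.5 CPM in input ERM libraries. In LMNB1 libraries it had 7.47 and 11.5 CPM after enrichment and 22.1 and 18.8 CPM in input. Inputs of both constructs held nearly the same level, so the contrast lay in the enriched libraries (difference 3.29 ± 0.27, adjusted p = 1.37e-06). GJA1 (chromosome 6, 121435646 to 121449727), the gap junction protein connexin 43, had 256, 286, 283 and 252 CPM in enriched and 62.9, 73.3, 69.0 and 75.7 CPM in input ERM libraries. It had 15.8 and 29.7 CPM in enriched and 37.7 and 69.1 CPM in input LMNB1 libraries, a difference of 3.17 ± 0.33. Levels of GJA1 varied between the LMNB1 numbers by almost as much as between enriched and input libraries. Within each number the enriched library was below its own input, at 15.8 against 37.7 CPM and at 29.7 against 69.1 CPM. Without LMNB1 input number 2 the gene left the group.

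DAG1 (chromosome 3, 49468948 to 49535615) encodes dystroglycan, a receptor that ties the cell surface to laminin. It had 629, 547, 569 and 510 CPM in enriched and 167, 163, 183 and 176 CPM in input ERM libraries, and 81.4 and 93.7 CPM in enriched and 216 and 232 CPM in input LMNB1 libraries. The difference was 3.07 ± 0.20. POMGNT2 (chromosome 3, 43079234 to 43106079), an ER glycosyltransferase that acts on dystroglycan, went the same way. It had 145, 133, 166 and 159 CPM in enriched and 45.9, 47.0, 49.4 and 53.5 CPM in input ERM libraries, and 29.9 and 33.2 CPM in enriched and 67.1 and 71.1 CPM in input LMNB1 libraries (difference 2.75 ± 0.20). CKAP4 (chromosome 12, 106237881 to 106248020), a membrane protein of ER sheets, had 215, 188, 202 and 218 CPM in enriched and 100.1, 90.4, 98.9 and 96.1 CPM in input ERM libraries. It had 29.9 and 32.6 CPM in enriched and 101 and 132 CPM in input LMNB1 libraries, and its LMNB1 enrichment of -1.89 was larger in size than its ERM enrichment of 1.09.

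Enzymes that sulfate the sugar chains of proteoglycans in the Golgi were named with both chain types. HS6ST2 (chromosome X, 132626015 to 132961370), a heparan sulfate 6-O-sulfotransferase, had 133 to 170 CPM in enriched and 72.1 to 78.8 CPM in input ERM libraries, and 17.5 to 23.4 CPM in enriched and 72.9 to 80.7 CPM in input LMNB1 libraries. CHST11 (chromosome 12, 104456948 to 104762014), a chondroitin 4-O-sulfotransferase, had 51.6 to 73.3 CPM in enriched and 15.1 to 19.8 CPM in input ERM libraries. In LMNB1 libraries it had 6.00 and 17.4 CPM after enrichment and 17.6 and 36.3 CPM in input, groups separated by a narrow margin. CHST11 left the group without LMNB1 enriched number 1 or LMNB1 input number 2, with ERM numbers 1 and 2 alone, under total counts and in a fit of 24 libraries. PDZD8 (chromosome 10, 117277274 to 117375440), an ER protein of membrane contact sites, had the largest ERM enrichment of the 12, at 2.24 ± 0.14, and the smallest LMNB1 enrichment in size, at -0.61 ± 0.20. PDZD8 left the group without LMNB1 enriched number 1 or 2 or LMNB1 input number 1, under total counts, without the filter on low counts and in a fit of 24 libraries. CANT1, a nucleotidase of the ER and Golgi, had a difference of 2.76, FAM171B one of 2.82, and KCTD12, an auxiliary subunit of GABA-B receptors that is no secretory protein, one of 2.79. FAM171B left the group without LMNB1 enriched number 1 or LMNB1 input number 2 and under total counts.

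The 292 genes lower with ERM and higher with LMNB1 had a median log2 enrichment of -0.71 with ERM and 1.00 with LMNB1, and a median difference of -1.69. Both values passed 1 in size in 48 of them. Of the 253 with a RefSeq entry, 77.1% were protein coding, 14.2% were long noncoding RNAs and 6.72% pseudogenes, against 87%, 6.36% and 6.12% of all tested genes. Names that mark an antisense, divergent or intergenic RNA made up 10.3% of the group, against 5.05% of all tested genes. Their span had a median of 27600 bases, close to that of all tested genes. The gene lists held 24 of them.

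The named genes of this group included the cyclin L pair, regulators of splicing found in nuclear speckles. CCNL1 (ENSG00000163660, chromosome 3, 157143121 to 157160147) had 131, 136, 149 and 130.1 CPM in enriched and 190.0, 237, 257 and 239.8 CPM in input ERM libraries. In LMNB1 libraries it had 628 and 675 CPM after enrichment and 249.8 and 216 CPM in input. The 4 inputs of ERM and the 2 of LMNB1 were at like levels, and the enriched libraries lay on opposite sides of them (difference -2.25 ± 0.21, edgeR adjusted p = 4.69e-06). Within each construct that separation was required by the choice of named genes. CCNL2 (chromosome 1, 1385711 to 1399335) had 74.6, 74.6, 111 and 116 CPM in enriched and 219, 225, 206 and 209 CPM in input ERM libraries, and 543 and 389 CPM in enriched and 259 and 207 CPM in input LMNB1 libraries. Its difference was -2.18 ± 0.28, and without LMNB1 input number 2 it left the group.

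Transcripts without a coding product were also among the named genes. SLC9A3-AS1 (chromosome 5, 473236 to 480892), a long noncoding RNA that overlaps SLC9A3, had 8.73 to 11.8 CPM in enriched and 19.3 to 27.7 CPM in input ERM libraries, and 76.5 and 78.2 CPM in enriched and 31.9 and 40.5 CPM in input LMNB1 libraries. RP6-24A23.8 (ENSG00000280322) had 40.9 to 65.9 CPM in enriched and 105 to 162 CPM in input ERM libraries, and 201 and 220 CPM in enriched and 89.0 and 121 CPM in input LMNB1 libraries. ENSG00000264112 and ENSG00000267002, for which no symbol was found, had differences of -2.20 and -2.11. RP6-24A23.8 left the group without LMNB1 input number 1. ENSG00000264112 left it without ERM enriched number 2 or 4 or ERM input number 3 or 4, with either pair of ERM numbers alone, under total counts and in the fit of 24 libraries. Nothing in the sources used here says whether the counting used strand. Without it, reads of an antisense RNA and its partner cannot be told apart.

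Coding genes of the group included some that share sequence with another gene. RPL36A (chromosome X, 101391011 to 101396155), a protein of the large ribosomal subunit, overlaps the readthrough gene RPL36A-HNRNPH2. It had 14.8, 17.1, 16.1 and 13.3 CPM in enriched and 29.2, 29.9, 27.5 and 29.5 CPM in input ERM libraries, and 123 and 102 CPM in enriched and 49.8 and 32.2 CPM in input LMNB1 libraries. EIF4A1 (chromosome 17, 7572825 to 7579006), the helicase of translation initiation, overlaps SENP3-EIF4A1 and had 6.65 to 15.8 CPM in enriched and 18.5 to 22.1 CPM in input ERM libraries, and 59.5 and 66.4 CPM in enriched and 18.6 and 23.9 CPM in input LMNB1 libraries. NPIPB5 (chromosome 16, 22503599 to 22536535) belongs to a family of near-identical copies and left the group without any of several single libraries, including either LMNB1 input. These 3 values are uncertain for those reasons. ATP5ME, a subunit of mitochondrial ATP synthase, had a difference of -2.43 and left the group without LMNB1 enriched number 1 or either LMNB1 input. OVGP1, a secreted glycoprotein, and RAPGEFL1 had differences of -2.19 and -2.10, so that a gene for a secreted protein stood among those higher with LMNB1. Under total counts and with ERM numbers 3 and 4 alone, EIF4A1, OVGP1 and RAPGEFL1 left the group, and in the fit of 24 libraries EIF4A1 and OVGP1 did.

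**Figure D2:**
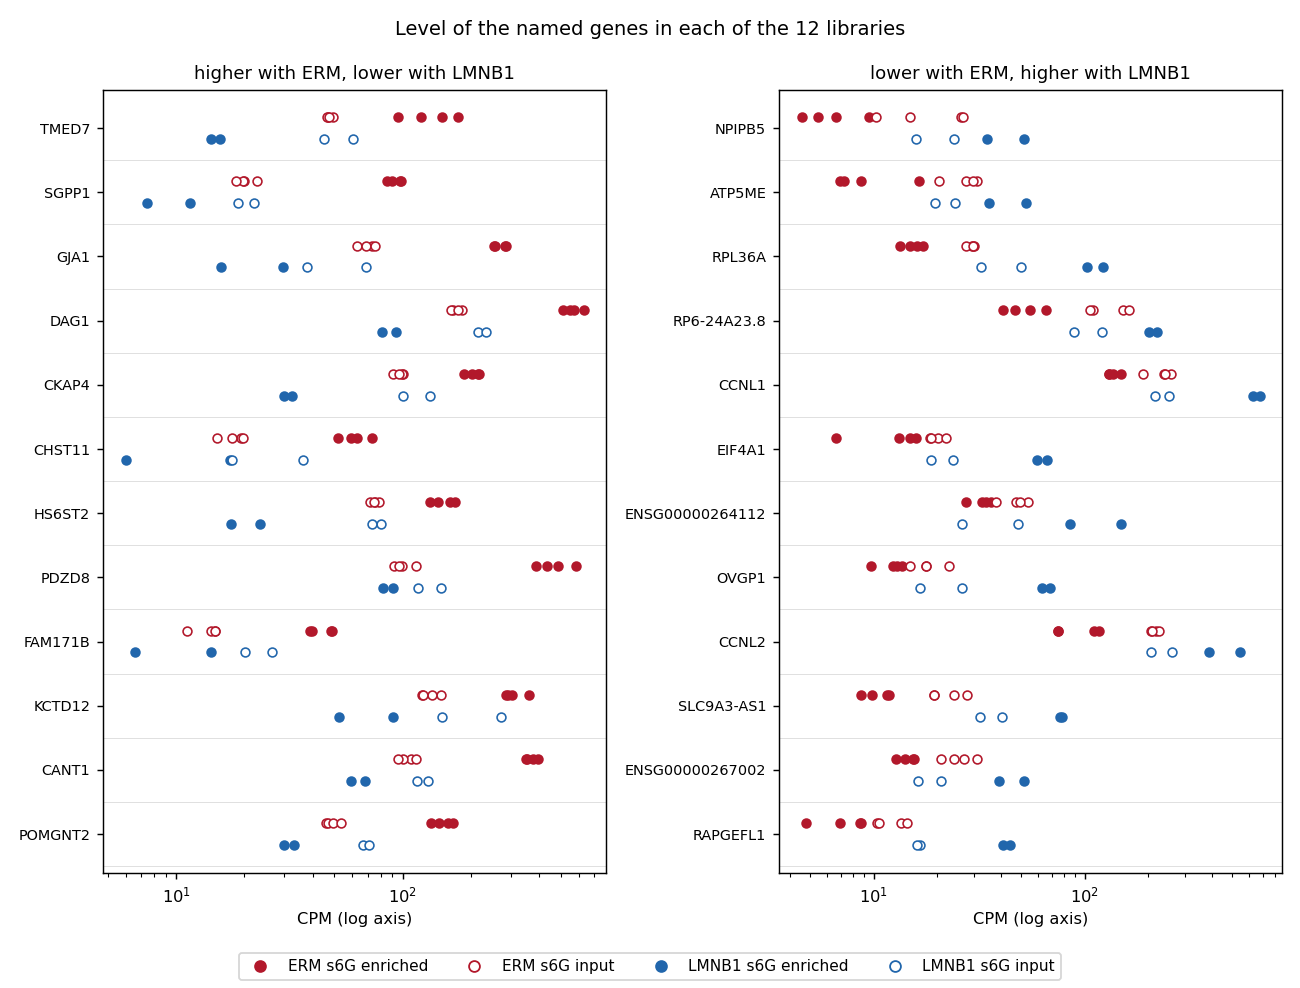
Levels in CPM on a log axis of the 12 named genes of each group in the 4 enriched (filled red) and 4 input (open red) ERM libraries and the 2 enriched (filled blue) and 2 input (open blue) LMNB1 libraries, 1 point per library. In the left panel filled red points lie right of open ones and filled blue points left, as for TMED7 with 95.8 to 176 CPM against 46.3 to 49.4 CPM with ERM. The order is reversed in the right panel. Both orders follow from the choice of these genes, which required opposite calls and separate ranges of enriched and input libraries.

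SERINC5 and CENPB were just inside the first group, with the largest of their 3 adjusted p-values at 0.0498 and 0.0496. SPCS3, a subunit of signal peptidase, and INTS5 were just outside, at 0.0503 and 0.0505. LETMD1 and UPF3B were just inside the second group, at 0.0493 and 0.0488, and ADAMTSL4-AS2 and ANKRD42-DT just outside, at 0.05 and 0.0502.

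The opposite groups were then examined in 3 other arms that had no part in choosing these genes. They were the NES construct (cytosol, through a nuclear export signal) with s6G, the LMNB1 construct with biotin-phenol but no thionucleoside (APEX only), and LMNB1 cells that received neither (unlabelled), with 2 enriched and 2 input libraries each. They hold s6G with another construct or LMNB1 without s6G, and the arms of the mitochondrial matrix construct were not used here. Unlabelled libraries held 1492243 and 3876715 counts after enrichment and 3913738 and 6021231 as input, so that enriched number 1 was shallow. Enriched libraries held 8229934 and 7761433 counts with NES and 6504472 and 6216616 with APEX only. In these arms 16074 genes were tested. In the NES arm 19.4% of the tested genes were higher and 16.7% lower in enriched libraries than in input. In the APEX-only arm 1.19% were higher and 3.62% lower, and in the unlabelled arm 0.541% were higher and 1.88% lower.

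The NES arm separated the groups as ERM had. Of the 457 genes higher with ERM and lower with LMNB1, 303 were higher and 0 lower with NES in edgeR, with a median log2 enrichment of 1.02. For the lower direction the count was also 0 at an unadjusted p under 0.05 and in DESeq2. Of the 292 genes of the other group, 282 were tested there, of which 0 were higher and 159 lower, with a median of -0.99. For the higher direction the count was again 0 at an unadjusted p and in DESeq2. Leaving out 1 of the 4 NES libraries left 191 to 224 of the first group higher and 56 to 89 of the second lower. Both groups thus went the same way with NES as with ERM. In the authors' deposited table of ERM over NES, the log2 ratio was above 0 for 198 of the 457 genes, with a median of -0.10, and for 173 of the 292, with a median of 0.07. Over all tested genes it was above 0 for 8142 of 16194, with a median of 0.002. For the named genes of the first group, that table gave HS6ST2 a log2 ratio of 0.83, GJA1 0.81, CKAP4 0.80, SGPP1 0.78 and DAG1 0.72. POMGNT2 stood at 0.49, FAM171B at 0.48, TMED7 and CANT1 at 0.34, PDZD8 at 0.23 and CHST11 at 0.18. The p-value in the authors' DESeq2 was 0.106 for TMED7, 0.174 for PDZD8 and 0.349 for CHST11. KCTD12 stood at -1.17. Most named genes of the second group were also above 0, with RP6-24A23.8 at 1.04, RPL36A at 0.67, EIF4A1 at 0.47 and CCNL1 at 0.45. ENSG00000267002 stood at 0.42, OVGP1 at 0.36, ENSG00000264112 at 0.31, ATP5ME at 0.25 and CCNL2 at 0.18. RAPGEFL1 stood at -0.11, NPIPB5 at -0.25 and SLC9A3-AS1 at -0.47. The ratio draws on the ERM construct, which also served to choose both groups.

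The arms of LMNB1 without s6G showed smaller values in the LMNB1 direction. In the APEX-only arm 0 of the 457 genes were higher and 43 lower, with a median of -0.18, and 28 of 282 of the other group were higher and 0 lower, with a median of 0.48. The counts of 0 in edgeR were 3 and 5 at an unadjusted p under 0.05, and 2 and 0 in DESeq2. With any 1 of the APEX-only libraries left out no gene was called in that arm by edgeR, with 1876 to 2628 genes at an unadjusted p under 0.05. In the unlabelled arm, which measures what the beads hold without labelling, 0 of the 457 genes were higher and 43 lower, with a median of -0.55, below the -0.11 of all genes tested there. Of the other group 5 were higher and 0 lower, with a median of 0.11. The counts of 0 were 2 and 13 at an unadjusted p and 1 and 0 in DESeq2. These 43 genes were thus lower on the beads also without labelling, and their part in the LMNB1 values was not tested. Calls in the unlabelled arm ranged from 24 to 2839 genes when 1 of its libraries was left out.

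**Figure D3:**
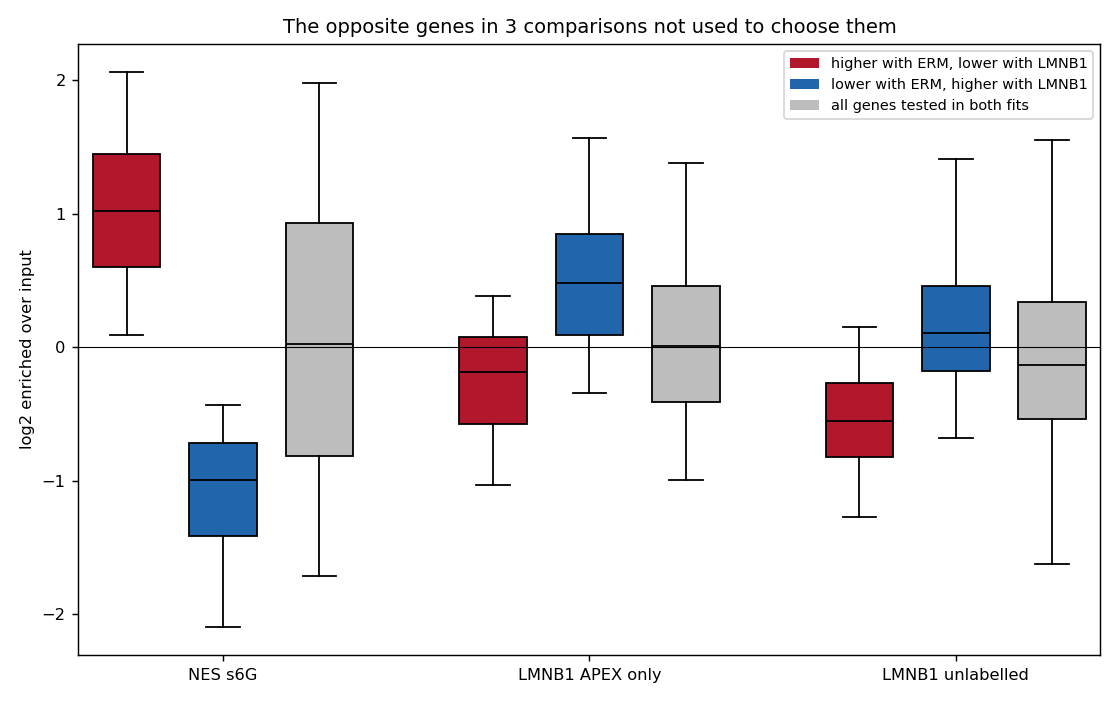
Log2 enriched over input of the 457 genes higher with ERM and lower with LMNB1 (red), of the reverse group (blue) and of the 15174 genes tested in both fits (grey) in the NES s6G, LMNB1 APEX-only and LMNB1 unlabelled arms; boxes show quartiles and medians, and whiskers the 5th and 95th percentiles. Red lies above 0 and blue below with NES, at medians of 1.02 and -0.99, and the order is reversed in the LMNB1 arms, at -0.18 and 0.48 and at -0.55 and 0.11.

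Genes of the early secretory pathway were described from lists of known members. These lists and those that follow were chosen with earlier results of these data known, so their counts are description and no test. They stand beside the 18.8% of all genes called higher and 14.9% called lower in the difference. The median difference over all genes was -0.02. Of 30 tested glycosylation enzymes of the Golgi, 19 were higher in the difference and 1 lower, with a median of 1.25, and 7 were in the group higher with ERM and lower with LMNB1. MAN1A1, a Golgi mannosidase, had 75.3 to 101 CPM in enriched and 25.0 to 38.3 CPM in input ERM libraries, and 15.8 and 20.7 CPM in enriched and 41.0 and 49.6 CPM in input LMNB1 libraries (difference 2.72 ± 0.29). CHPF, which polymerises chondroitin, differed by 2.49 ± 0.22, and CHSY1, with the same role, by 2.62 ± 0.22 without being lower with LMNB1 (-0.26, adjusted p above 0.05). Counts of this list as a share of the library were 0.317%, 0.284%, 0.267% and 0.263% in enriched and 0.179%, 0.171%, 0.155% and 0.150% in input ERM libraries. In LMNB1 libraries the shares were 0.150% and 0.177% in enriched and 0.181% and 0.208% in input. The list thus took up more of the library after ERM capture in all 4 pairs and less after LMNB1 capture in both.

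A list median within one construct is relative to the median gene, and some of them changed sign with the scaling. Under total counts the ERM median was 0.25 for ER chaperones, 0.016 for the translocon list, 0.33 for sterol genes, 0.28 for plexin and related receptors, 0.24 for hnRNPs, 0.029 for lamins and soluble pore proteins and 0.06 for kinesins and condensins, each below 0 with composition scaling. The LMNB1 median was 0.050 for SLC transporters, 0.093 for tail-anchored proteins, 0.19 for receptor kinases, 0.22 for plexin and related receptors, 0.24 for hnRNPs, 0.30 for inner nuclear membrane proteins, 0.26 for importins, 0.34 for histone genes and 0.29 for developmental factors, also each below 0 with composition scaling. No median difference changed sign under total counts. Under RLE scaling those near 0 did, at -0.086 for the N-glycan list, -0.048 for lysosomal genes and -0.015 for mitochondrial ribosomal proteins. Without LMNB1 input number 2 the median difference was -0.22 for matrix genes and -0.13 for plexin and related receptors. Without LMNB1 enriched number 1 it was -0.017 for matrix genes, and without LMNB1 enriched number 2 it was -0.0059 for the translocon list.

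Of 17 KDEL receptors and p24 cargo proteins, 10 were higher in the difference and 0 lower, with 1 lower at an unadjusted p under 0.05 and 2 in DESeq2. Their median difference was 1.08, made of 0.07 with ERM and -1.02 with LMNB1. KDELR2, a receptor that returns ER proteins from the Golgi, was lower than input with both constructs, at -0.38 with ERM and -1.98 with LMNB1. TMED2 was higher with ERM (0.47) and lower with LMNB1 (-1.33). Among 26 genes of sterol synthesis and uptake 14 were higher and 1 lower, with a median of 1.04. INSIG1, the ER protein that holds back the sterol sensor, had 583 to 923 CPM in enriched and 191 to 258 CPM in input ERM libraries, and 61.1 and 95.5 CPM in enriched and 88.9 and 199 CPM in input LMNB1 libraries, where the groups overlapped.

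Among 27 genes of the translocon and signal peptide handling 12 were higher and 3 lower, with a median of only 0.21. SRPRB, a subunit of the receptor for the signal recognition particle, was in the opposite group, with a difference of 1.54. SEC61B differed by 1.64, but its level already differed between the inputs, as given above. Among 25 ER chaperones 9 were higher and 0 lower, with 2 lower at an unadjusted p and 1 in DESeq2. HSPA5, the Hsp70 of the ER lumen, had 2177 to 2383 CPM in enriched and 637 to 797 CPM in input ERM libraries, and 501 and 822 CPM in enriched and 706 and 1033 CPM in input LMNB1 libraries, where the groups overlapped. Calreticulin (CALR) stood at 0.00 with ERM and -1.78 with LMNB1, so its difference of 1.78 came from the LMNB1 side. The oligosaccharyltransferase and N-glycan list went no way as a whole, with 5 of 25 higher, 3 lower and a median difference of 0.02. Both its ERM median, -0.94, and its LMNB1 median, -0.95, were below 0.

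Membrane and matrix proteins further along the pathway were divided. Among 29 SLC transporters of the plasma membrane 15 were higher and 3 lower, and 5 were in the opposite group. SLC2A1, the glucose transporter, had 142 to 161 CPM in enriched and 55.6 to 65.7 CPM in input ERM libraries, and 36.6 and 40.5 CPM in enriched and 71.1 and 90.2 CPM in input LMNB1 libraries (difference 2.35 ± 0.20). SLC7A2, a transporter of basic amino acids, differed by 2.54 ± 0.37. Among 30 plexin, Notch, Frizzled and LRP receptors 9 were higher and 2 lower (15 and 6 with the replicate block). The Wnt receptor FZD1 differed by 3.02 ± 0.35, from 2.57 with ERM and -0.46 with LMNB1. TGFBR1, a receptor kinase, was in the opposite group at 1.43 and -1.30. Of 33 laminins, collagens and matrix proteins, 24 were lower than input with ERM and 26 with LMNB1, with medians of -1.30 and -1.33. In the difference 7 were higher and 2 lower (10 and 6 with the block), and 3 syndecans, the transmembrane proteoglycans SDC1, SDC2 and SDC4, were in the opposite group. Lysosomal genes were split, with 7 of 29 higher and 6 lower.

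Proteins of the nuclear envelope are made at the ER and then move inward, or are made in the cytosol and imported. Among 18 genes of inner nuclear membrane and pore membrane proteins 6 were higher and 0 lower in the difference, with 3 lower at an unadjusted p and 3 in DESeq2. With the replicate block these counts were 9 and 2. TMPO, a lamina-associated protein with membrane and soluble forms, was in the group higher with ERM and lower with LMNB1. It had 345 to 447 CPM in enriched and 242 to 268 CPM in input ERM libraries, and 123 and 133 CPM in enriched and 301 and 323 CPM in input LMNB1 libraries. TOR1AIP1, of the inner nuclear membrane, differed by 1.96 ± 0.24. Lamins and soluble pore proteins went the other way, with 3 of 24 higher and 12 lower and a median of -0.58. TPR, of the nuclear basket, had 227 to 255 CPM in enriched and 392 to 432 CPM in input ERM libraries, and 564 and 675 CPM in enriched and 315 and 368 CPM in input LMNB1 libraries. LMNB2, the other B-type lamin, was in the group higher with ERM. Tail-anchored membrane proteins, which enter the ER after translation, had 11 of 30 higher and 2 lower (17 and 6 with the block), with VAPA at 1.07 with ERM and -0.93 with LMNB1.

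**Figure D4:**
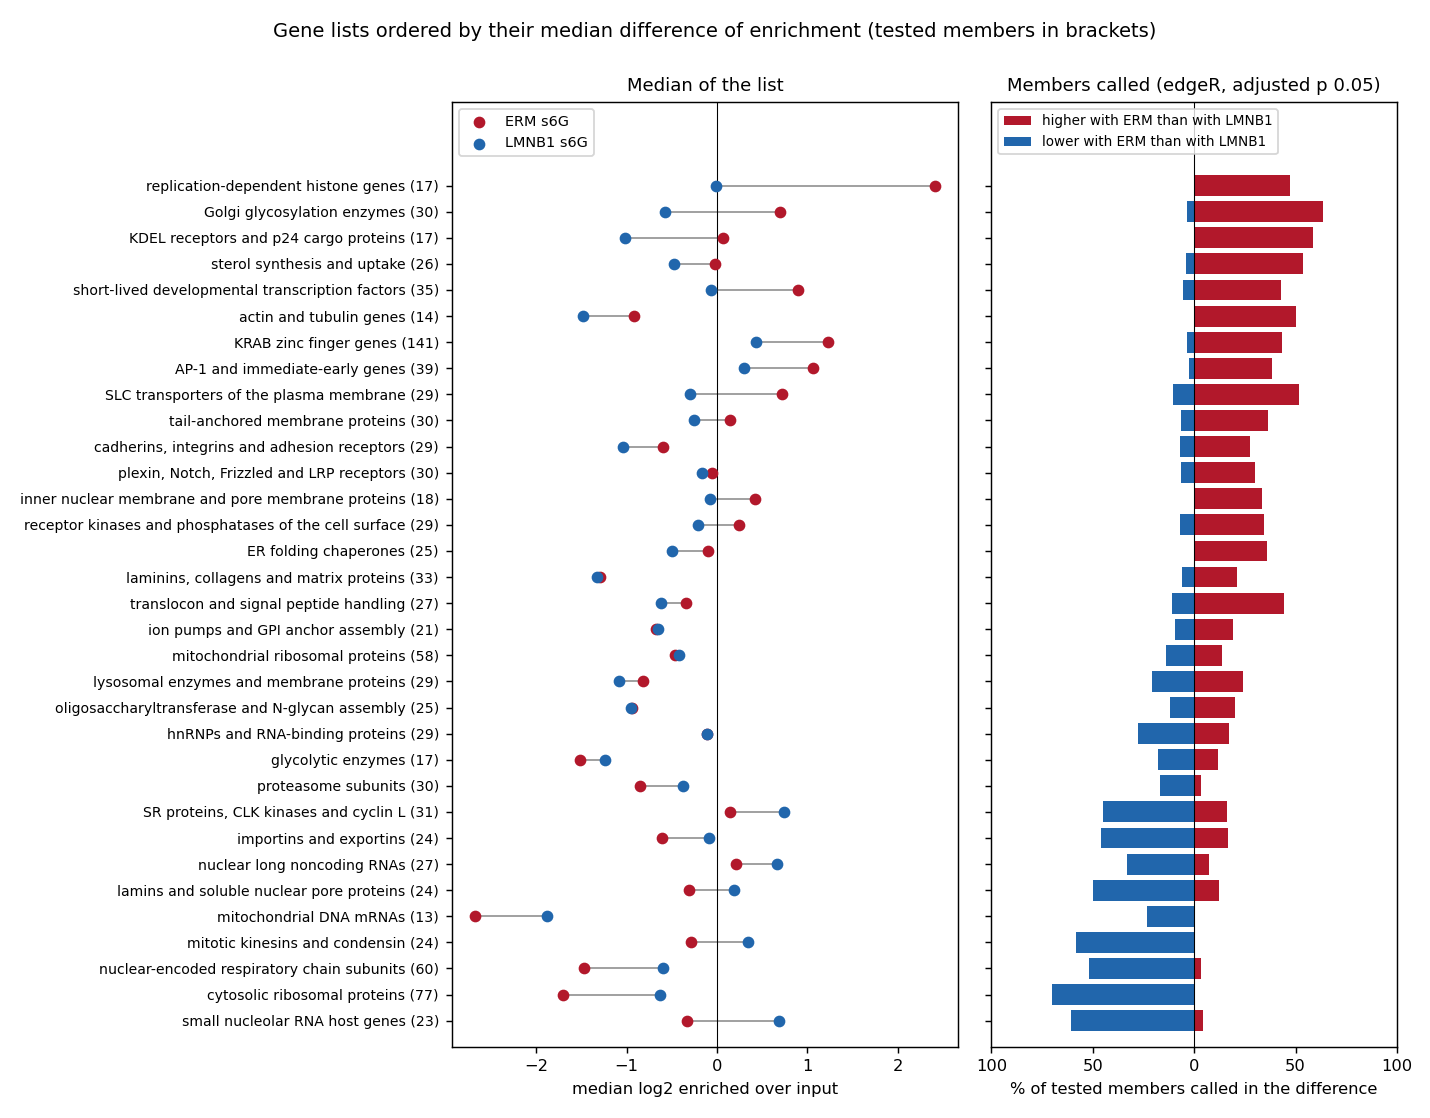
For each gene list, ordered by the median difference of enrichment, the left panel gives the median log2 enriched over input with ERM (red) and LMNB1 (blue), and the right panel the percentage of tested members called higher (red, right) or lower (blue, left) in the difference. Golgi enzymes lie at 0.70 with ERM and -0.58 with LMNB1, and small nucleolar RNA host genes at -0.33 and 0.69.

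RNAs processed or kept in the nucleus were more often lower than higher in the difference, which means more enriched with LMNB1. Small nucleolar RNA host genes, whose introns hold small nucleolar RNAs, had 1 of 23 higher and 14 lower in the difference, with a median of -1.13. They stood at -0.33 with ERM, which became 0.01 under total counts, and at 0.69 with LMNB1. SNHG6 had 26.4 to 49.3 CPM in enriched and 83.3 to 99.6 CPM in input ERM libraries, and 60.7 and 114 CPM in enriched and 48.2 and 60.1 CPM in input LMNB1 libraries. Their share of counts was 0.185%, 0.203%, 0.214% and 0.213% in enriched and 0.198%, 0.202%, 0.209% and 0.213% in input ERM libraries, hardly changed, and 0.343% and 0.270% in enriched and 0.213% and 0.175% in input LMNB1 libraries. GAS5, ZFAS1, SNHG3 and SNHG4 were in the group higher with LMNB1 and lower with ERM.

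Of 27 nuclear long noncoding RNAs 2 were higher and 9 lower, with a median of -0.57. NEAT1, the RNA that builds paraspeckles, had 45.9 to 66.9 CPM in enriched and 78.0 to 142 CPM in input ERM libraries, and 138 and 220 CPM in enriched and 72.1 and 109 CPM in input LMNB1 libraries. THUMPD3-AS1 differed by -1.99 ± 0.28, at -0.28 with ERM and 1.71 with LMNB1. GABPB1-AS1 was in the opposite group, at -0.56 and 1.35. Among SR proteins, CLK kinases and cyclin L, which control splicing and often keep introns, 5 of 31 were higher and 14 lower (9 and 15 with the block), and 7 were in the group higher with LMNB1. LUC7L3, a splicing factor, had 232 to 357 CPM in enriched and 412 to 516 CPM in input ERM libraries, and 1075 and 1327 CPM in enriched and 387 and 520 CPM in input LMNB1 libraries. The hnRNPs were split, with 5 of 29 higher and 8 lower (8 and 11 with the block), and HNRNPH1 was in the group higher with LMNB1. In the APEX-only arm of LMNB1, the medians of the noncoding, host gene and SR lists were 1.08, 0.76 and 0.67, and in the NES arm -0.10, -0.24 and 0.16.

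Short-lived transcripts and genes of transcription factors were more often higher than lower in the difference. Of 141 KRAB zinc finger genes, which encode repressors of transposable elements, 61 were higher and 5 lower, with a median of 0.79. With ERM 124 of them were higher than input and with LMNB1 30, at medians of 1.22 and 0.43, and none of them was in an opposite group. ZNF805 had 29.6 to 40.5 CPM in enriched and 6.05 to 7.77 CPM in input ERM libraries, and 8.00 and 9.92 CPM in enriched and 7.29 and 10.8 CPM in input LMNB1 libraries. Among AP-1 and immediate-early genes 15 of 39 were higher and 1 lower. MYC had 504 to 716 CPM in enriched and 256 to 314 CPM in input ERM libraries, and 276 and 307 CPM in enriched and 425 and 467 CPM in input LMNB1 libraries, which put it in the group higher with ERM. JUND had 380 to 455 CPM in enriched ERM libraries, against 236 and 216 CPM in inputs 1 and 2 and 66.9 and 61.9 CPM in inputs 3 and 4. Its difference of 2.05 was not called with the block (adjusted p = 0.0675), without the filter on low counts (0.172) or when any 1 LMNB1 library was left out (0.059 to 0.15). Of 35 developmental transcription factors 15 were higher and 2 lower, with SOX9, SIX2 and MSX2 in the group higher with ERM and HOXD10 in the other. With NES the medians of these lists were 1.73, 1.88 and 1.63, above those of ERM at 1.22, 1.07 and 0.90. The difference between these constructs was not tested. In the APEX-only arm of LMNB1 the medians of these lists were 0.58, 0.33 and -0.21, against 0.03 over all genes tested there.

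Replication-dependent histone genes, whose messages normally end without a polyA tail, gave the largest list median, 1.51, with 8 of 17 higher and 0 lower, with 0 lower also at an unadjusted p and in DESeq2. H1-4 had 306 to 432 CPM in enriched and 2.59 to 5.00 CPM in input ERM libraries, and 5.75 and 16.2 CPM in enriched and 3.02 and 3.24 CPM in input LMNB1 libraries. It was thus higher with both constructs, and the difference was 4.72 ± 0.65. Its log2 enrichment was 5.98 with NES (edgeR adjusted p = 0.00192) and 5.55 in the unlabelled arm (adjusted p = 0.0593). Histone messages without a tail are not measured in these polyA-selected libraries.

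Among messages of abundant cytosolic and mitochondrial proteins, ribosomal proteins and the respiratory chain were mostly lower in the difference. Of 77 genes of cytosolic ribosomal proteins 0 were higher and 54 lower in the difference (73 lower with the block), with 0 higher also at an unadjusted p and in DESeq2. With ERM all 77 were lower than input and with LMNB1 30, at medians of -1.71 and -0.63. Their share of counts was 3.47%, 4.27%, 4.75% and 5.04% in enriched and 10.3%, 10.1%, 11.6% and 12.7% in input ERM libraries. In LMNB1 libraries the shares were 7.96% and 5.55% in enriched and 9.50% and 8.32% in input. RPL36A was the only one in an opposite group, and its value is uncertain because it overlaps a readthrough gene. Of 60 nuclear-encoded subunits of the respiratory chain 2 were higher and 31 lower, with a median of -0.997. NDUFB1, one of them, had 19.1 to 28.7 CPM in enriched and 63.4 to 95.3 CPM in input ERM libraries, and 71.8 and 112 CPM in enriched and 68.9 and 77.9 CPM in input LMNB1 libraries. UQCRFS1 was the exception in the group higher with ERM. Proteasome subunits had 1 of 30 higher and 5 lower (2 and 16 with the block), and glycolytic enzymes 2 of 17 higher and 3 lower (3 and 8 with the block).

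Actin and tubulin genes, also abundant cytosolic messages, went the other way, with 7 of 14 higher in the difference and 0 lower, also 0 at an unadjusted p and in DESeq2. With ERM 9 were lower than input and with LMNB1 12, at medians of -0.92 and -1.49. TUBA1A had 72.3 to 93.2 CPM in enriched and 114 to 124 CPM in input ERM libraries, and 27.6 and 27.9 CPM in enriched and 114 and 118 CPM in input LMNB1 libraries. Mitochondrial ribosomal proteins were even, with 8 of 58 higher and 8 lower (16 and 11 with the block). Messages encoded by mitochondrial DNA, made inside the mitochondrial matrix, had medians of -2.68 with ERM and -1.88 with LMNB1, with all 13 lower than input in each, and 0 of 13 were higher and 3 lower in the difference (11 lower with the block), with 0 higher at an unadjusted p and in DESeq2. MT-CO2 had 834 to 1031 CPM in enriched and 6221 to 8548 CPM in input ERM libraries, and 1191 and 1334 CPM in enriched and 4179 and 5601 CPM in input LMNB1 libraries. The called genes were MT-CO2, MT-ATP6 and MT-CYB, and without LMNB1 input number 1 their adjusted p-values in edgeR were 0.0744, 0.153 and 0.295.

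Genes of cell division and nuclear transport were also more often lower in the difference. Of 24 mitotic kinesins and condensin subunits 0 were higher and 14 lower, with 0 higher also at an unadjusted p and in DESeq2, and their median was -0.74. NCAPD3, a condensin subunit, had 61.3 to 83.7 CPM in enriched and 160 to 183 CPM in input ERM libraries, and 233 and 249.8 CPM in enriched and 189 and 228 CPM in input LMNB1 libraries. Of 24 importins and exportins 4 were higher and 11 lower, with XPO5, the exportin of microRNA precursors, at -1.32 with ERM and 0.13 with LMNB1. KIF14 was in the group higher with LMNB1 and lower with ERM, and KPNA3 in the other.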

How the data were processed

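The authors deposited raw counts for 57992 Ensembl gene IDs in 40 libraries, made per the submitters' processing notes with HISAT2 2.1.0 and HTSeq 0.7.2 among other tools, on GRCh38/hg38. The labels and notes name no annotation and no strand setting. Current symbols matched 56948 IDs. Per the file headers, the authors also deposited a DESeq2 table of ERM over NES, with a log2 fold change, p-value and mean normalized signal per gene, and a table of the LMNB1 arms with log2 fold changes and adjusted p-values. These were set beside the results only where named. RefSeq (GRCh38.p14) gave positions and gene types. On simulated data with the real means and library sizes, the difference test recovered 22% of 2-fold and 67% of 4-fold changes (100 genes each of 16194, 3 false calls).

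Counts of the 12 libraries, grouped by title, were fitted as group means in R 4.3.3 by edgeR 4.0.16 (robust quasi-likelihood fit, TMM scaling, filterByExpr, Benjamini-Hochberg, threshold 0.05). NES, LMNB1 APEX-only and LMNB1 unlabelled libraries had a separate fit. CPM are TMM-scaled. After subtracting group means, the enriched library correlated with the input of its own number at r = 0.43, 0.33, 0.38 and 0.41 (ERM 1 to 4) and 0.68 (both of LMNB1), and ERM 1 and 3 more strongly with another input (0.51 and 0.48). The series design gives these as one replicate before and after the beads, so the numbers pair the libraries. The design calls replicates biological without saying what was separate, so p-values measure the spread between these libraries. Replicates differed by more than sampling noise.

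Named genes were up to 12 per opposite group with the largest difference, requiring an average log2 CPM of 4 or more and separate ranges of enriched and input libraries. Up to 3 called members per list were added, with the genes at the group edges, LMNB1 and SEC61B; other list members are named as members of an opposite group. The groups, the 35 gene and marker lists and their members were chosen with earlier results of these data known. A planned description of protein features was not made, as no protein table was used here. Alternatives were RLE and total-count scaling, other filters, DESeq2 1.42.0, the replicate block, 24 libraries in one fit and leaving out each library. Splitting ERM by numbers 1 and 2 against 3 and 4, and the opposite groups under the alternatives of the other arms, were added after seeing the data.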

Additional observations from a re-analysis of the deposited data

Results flagged for a closer look

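The test of the difference itself set the constructs apart in 3045 genes that were more enriched with ERM and 2408 less enriched. The 457 and 292 genes of the opposite groups are the part of these also called within each construct, in opposite directions. No explanation of them was tested.

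Of 260 ERM groups of 4 libraries examined (130 named genes, enriched and input), 10 had one library apart from the other 3, no more than the 13 that chance gives at about 1 in 20 groups. Enriched ERM number 1 had 2177 CPM of HSPA5 (the others 2348 to 2383), 32.8 CPM of FREM2 (24.9 to 26.0) and 57.5 CPM of FZD1 (49.7 to 50.5). Input ERM number 1 had 6.67 CPM of ZNF254 (13 to 13.8) and 412 CPM of LUC7L3 (506 to 516), and input number 2 had 114 CPM of TUBA1A (122 to 124). Input number 3 had 36.5 CPM of SDC2 (41.2 to 41.6). Input number 4 had 11.1 CPM of FAM171B (14.2 to 14.8), 392 CPM of TPR (428 to 432) and 99.6 CPM of SNHG6 (83.4 to 85.1). Enriched and input ERM libraries of FREM2 overlapped, and those of the other 9 genes did not.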

How the results depend on the processing

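With the replicate block the opposite groups held 862 genes (higher with ERM) and 505 (higher with LMNB1), against 457 and 292 without it; apart from JUND and the list counts given with the block, it changed no call of a named gene, and it gave 1 gene of the second group lower in the APEX-only arm. Requiring a size of 1 in both constructs left 55 and 48. Total-count scaling gave 297 and 263, the fit of 24 libraries 266 and 212, and ERM numbers 3 and 4 alone 457 and 148. RLE scaling, both other filters, DESeq2 and ERM numbers 1 and 2 alone kept both counts within 1.5 times. Leaving out 1 library gave 337 to 459 and 136 to 274, and 3299 to 5486 calls within LMNB1. The LMNB1 gene, not called, reversed to -0.052 with RLE, -0.034 with DESeq2 and -0.14 with ERM numbers 1 and 2, and ranged from -0.12 to 0.23 when 1 library was left out. Of the 130 named genes, 117 to 129 kept direction and call under each setting.

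In the other arms, leaving out 1 library gave 3612 to 3786 calls with NES (191 to 224 of the first group higher, 56 to 89 of the second lower), 0 calls in the APEX-only arm and 24 to 2839 in the unlabelled arm. There the first group had 0 to 3 genes higher and 5 to 158 lower, and the second 0 to 31 higher and 0 to 20 lower. Total-count scaling gave 17 genes of the first group lower in the APEX-only arm, and 252 calls with 24 of them lower in the unlabelled arm. RLE gave 185 calls there with 13 lower. DESeq2 gave 1531 calls in the APEX-only arm (first group 2 higher and 68 lower, second 47 higher) and 894 in the unlabelled arm (1 of the first and 15 of the second higher). The causes were not tested. Arms with 2 libraries per group left 1 in a group, which was assumed to vary like the other groups.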
